A study of Mus musculus with 8 samples.

Results

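The enzymes of glycolysis and the citric acid cycle were followed in primary cultured microglia, the resident macrophages of the brain, with and without IgG. The members were the rows of the count table whose mouse gene symbol stood in a list of 37 genes, out of 55385 genes in the table. All 37 were found, in 38 rows, because Aldoa has a second Ensembl row that held 77 counts over the 8 libraries. Of the members, 18 belong to glycolysis and lactate formation, 2 control glycolysis, 4 govern the conversion of pyruvate to acetyl-CoA and 13 are counted with the citric acid cycle. These 13 include the cytosolic Idh1 and Mdh1 and the NADP-linked Idh2.

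The cells came from the neocortex and hippocampus of wild-type newborn mice. Brains were pooled in mixed cultures and the microglia were shaken off, so a culture stands for no single animal. The 4 IgG libraries came from cultures given 10 µg/ml IgG for 24 h from day 15 in vitro, and the 4 control libraries from untreated cultures. Control and IgG libraries of 1 replicate number bear 1 date in the labels and are called a pair here. Both groups share the genotype, medium and culture day, and no other genotype or treatment was used. The methods of the study describe the untreated cultures as given PBS.

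Glycolysis breaks glucose down to pyruvate in the cytosol, and lactate dehydrogenase turns pyruvate into lactate. Pyruvate is imported into mitochondria, where the pyruvate dehydrogenase complex converts it to acetyl-CoA, which citrate synthase feeds into the citric acid cycle. Macrophages and microglia are known to lean on glycolysis when they are activated by bacterial products, and several steps are served by isoenzymes that differ between tissues.

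The first step, the phosphorylation of glucose by hexokinase, is served by 3 isoenzymes, of which Hk3 lay far above Hk1 and Hk2 here, and their promoters are therefore shown. They are RefSeq sequences of the GRCm38.p6 assembly, from 250 bases before to 50 bases after the annotated start, 5′ to 3′ on the strand of the gene. The Hk1 window lies at chr10:62379859-62380158, Hk2 at chr6:82774405-82774704 and Hk3 at chr13:55021336-55021635, all on the minus strand. Capitals mark matches to GAGGAA, letters known from sites of the macrophage factor PU.1, and to ACGTG and GCGTG, the core letters of hypoxia response elements, on either strand.
Hk1: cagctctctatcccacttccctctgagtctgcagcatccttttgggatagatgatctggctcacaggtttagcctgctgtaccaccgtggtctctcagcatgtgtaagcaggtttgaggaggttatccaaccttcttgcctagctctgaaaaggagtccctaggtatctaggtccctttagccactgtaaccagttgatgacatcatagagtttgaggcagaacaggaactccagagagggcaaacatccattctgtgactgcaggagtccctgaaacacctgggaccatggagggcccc
Hk2: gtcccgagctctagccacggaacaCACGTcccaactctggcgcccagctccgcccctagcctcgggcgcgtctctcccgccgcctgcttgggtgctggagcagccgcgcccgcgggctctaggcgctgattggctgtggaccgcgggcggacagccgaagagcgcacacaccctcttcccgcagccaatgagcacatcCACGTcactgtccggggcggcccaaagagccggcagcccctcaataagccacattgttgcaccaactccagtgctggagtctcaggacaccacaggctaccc
Hk3: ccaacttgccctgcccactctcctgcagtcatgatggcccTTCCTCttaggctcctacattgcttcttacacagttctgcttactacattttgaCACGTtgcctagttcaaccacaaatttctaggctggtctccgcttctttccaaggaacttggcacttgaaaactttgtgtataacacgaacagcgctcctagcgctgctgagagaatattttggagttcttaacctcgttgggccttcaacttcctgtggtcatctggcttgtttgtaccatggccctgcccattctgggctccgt

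The Hk3 promoter held 1 match to GAGGAA and 1 to ACGTG, the Hk2 promoter held 2 matches to ACGTG, and the Hk1 promoter held none of these letters. Promoters were found for 36 of the 37 members. GAGGAA stood in 27.8% of the member promoters and in 28.3% of all 27025 promoters of the same length. ACGTG stood in 13 member promoters, 36.1% against 19.7% of all promoters, and GCGTG in 19, 52.8% against 32.5%. Either of the hypoxia letters was present in 25 of the 36, 69.4% against 43.8%. These are letter matches in a window and are not sites. ACGTG and GCGTG each hold the bases CG, which GAGGAA does not, and the promoters were not matched on base composition. The part of base composition in these shares was not tested.

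The libraries held 21287816 to 23703216 counts. Members took 0.653% to 0.692% of the counts in the control libraries and 0.619% to 0.724% in the IgG libraries. Mitochondrially encoded genes took 2.32% to 2.41% in the control libraries, but 4.85% and 5.59% in IgG replicates 1 and 3 against 2.21% and 1.97% in IgG replicates 2 and 4. Levels below are CPM, that is counts scaled by TMM to a common library size, or RPKM, the same values per kilobase of all annotated exons, where genes are compared with each other.

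No transcript of these enzymes passed the tests between IgG and control, and the fitted differences were small. With edgeR's quasi-likelihood test and the replicate number as a block, 0 of the 37 members passed an adjusted p of 0.05 in either direction, where 0.393% of the 17537 genes tested were called higher and 0% lower. The criterion of the study, an unadjusted p under 0.01 with an absolute log2 fold change above 0.5, was likewise met by 0 members, against 1.48% of all genes higher and 0.342% lower. The smallest adjusted p among the members was 0.397. At an unadjusted p under 0.05, 1 member was higher (Hk2) and 2 were lower (Pfkm and Eno2), where 6.35% of all genes were higher and 3.85% lower. With total counts in place of TMM, 0 members were higher and 3 lower (Pfkm, Eno2 and Aldoc). Of all 17537 genes, 575 were then higher and 1523 lower. Without the block the test called 0 members as well, and at an unadjusted p under 0.05 it gave 3 (Hk2, Fh1 and Mdh1, all higher), against 7.01% of all genes in either direction. DESeq2 and limma-voom, with the block, each called 0 members at an adjusted p of 0.05. Of all genes tested, DESeq2 called 212 of 31368 higher and 16 lower, and limma-voom 87 of 17537 higher and 1 lower.

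The size of the differences was small as well. Over the 37 members the median log2 fold change was 0.06, with a range from -0.41 to 0.22, and 25 were above 0. Over all genes tested the median was -0.01. With total counts in place of TMM the median of all genes moved to -0.11 and that of the members to -0.04, and 12 members were above 0, so the side on which most members lay depended on the scaling. The highest values shrank with it, to 0.12 for Hk2, 0.10 for Fh1, 0.09 for Cs and Mdh1, 0.07 for Eno1, 0.06 for Ldha and Pfkfb4 and 0.04 for Idh3g. The lowest values moved further from 0, to -0.51 for Eno2, -0.42 for Aldoc and -0.41 for Pfkm. The 95% interval of the log2 fold change lay within 0.5 of 0 for 34 of the 37 members, and for 8849 of the 17537 genes tested. The exceptions were Pfkm, Aldoc and Eno2, whose intervals reached below -0.5. P-values of the fits with the block rest on how the difference between IgG and control varied between the 4 pairs, with the spread moderated over genes. Differences between the dates themselves are taken out by the block.

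**Figure D1:**
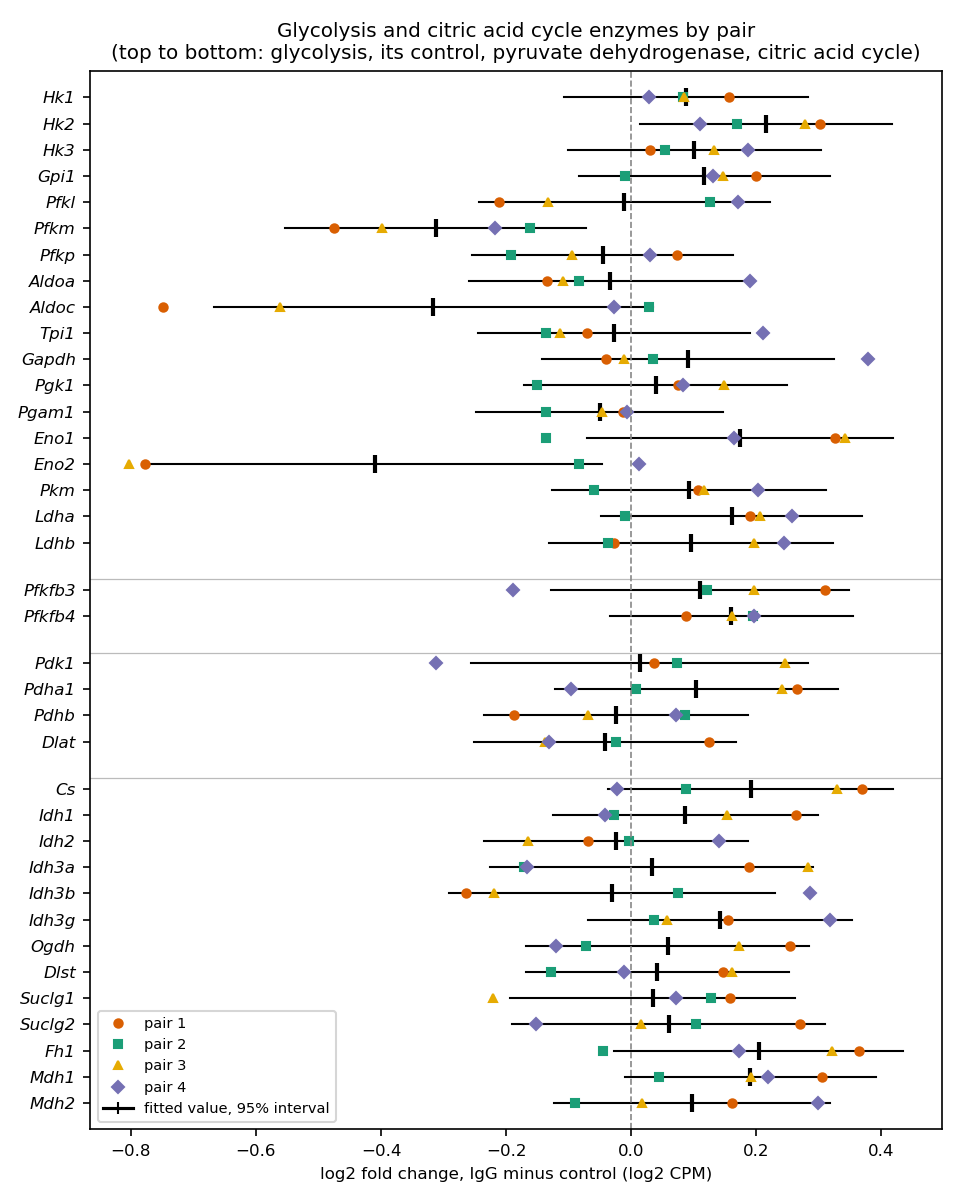
Log2 fold change, IgG minus control, of the 37 members in each of the 4 pairs (coloured points), with the fitted value (black tick) and its 95% interval (black line). Of the fitted values 25 lie between 0 and 0.22, and Eno2, Aldoc and Pfkm lie lowest.

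All 3 hexokinases were higher with IgG in 4 of 4 pairs with TMM, without passing the adjusted test, but with total counts Hk1 was at -0.01 and Hk3 at 0.00091, higher in 1 and 2 pairs. Hk2, the inducible isoenzyme bound to mitochondria, stood at 50.5, 50.6, 52.5 and 48.9 CPM in control replicates 1 to 4 and at 62.2, 56.9, 63.7 and 52.8 CPM with IgG. The lowest IgG library lay just above the highest control library, so the groups did not overlap with TMM. Its log2 fold change was 0.22 (SE 0.09, 95% interval 0.01 to 0.42), the highest of all members, with an adjusted p of 0.474 by the quasi-likelihood test. With total counts the value for Hk2 was 0.12 and the groups overlapped, since the lowest IgG library (52.4 CPM) lay under the highest control library (54.1 CPM).

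Hk3 was the main hexokinase transcript of these cultures. Its control level was 160 ± 8.15 RPKM (SD, n = 4), against 8.48 ± 0.246 RPKM for Hk2 and 5.38 ± 0.30 RPKM for Hk1, the widespread isoenzyme of the brain. Of the summed hexokinase RPKM, Hk3 made up 92.0% ± 0.487 in control and 91.7% ± 0.309 in IgG libraries. With the length of the principal transcript in place of all exons the share was 89.7% and 89.4%, while Hk1 then stood above Hk2. Hk3 stood at 629, 593, 583 and 557 CPM in control and at 643, 616, 640 and 633 CPM with IgG, with a log2 fold change of 0.10 (SE 0.09, adjusted p = 0.683). Hk1 ran from 42.8 to 49.0 CPM in control and from 47.7 to 49.9 CPM with IgG, giving a log2 fold change of 0.09 (SE 0.08). The log2 ratio of Hk3 to Hk2 differed by -0.11 ± 0.144 (SD, n = 4 pairs), an exact sign-flip permutation p of 0.25, two-sided. In this test 4 pairs cannot reach 0.05, and 8 such isoenzyme ratios were compared.

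**Figure D2:**
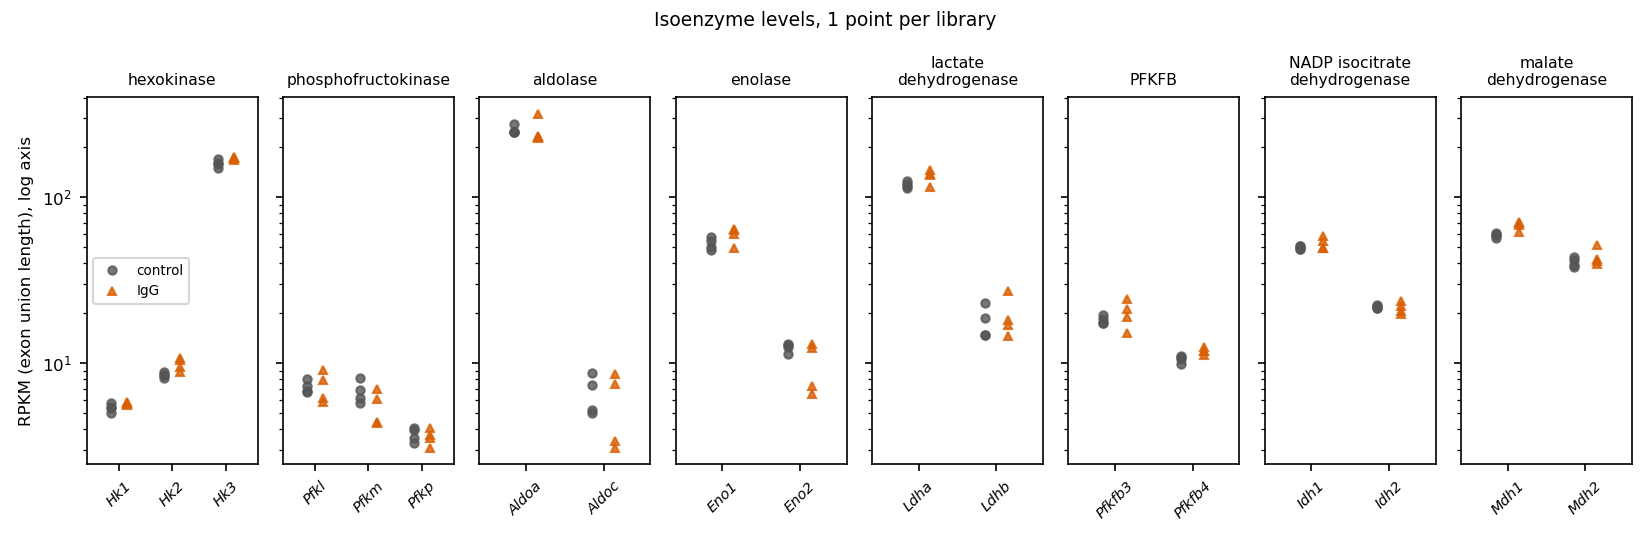
Levels of the isoenzymes of 8 steps in RPKM on a log axis, 1 point per library, with 4 control (circles) and 4 IgG (triangles) libraries. Hk3, Aldoa, Eno1 and Ldha lie far above the other isoenzymes of their step, and Eno2 and Aldoc each split into a pair of low and a pair of high IgG libraries.

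Gpi1, the isomerase after hexokinase, differed by 0.12 (SE 0.09), with 351 to 373 CPM in control and 367 to 413 CPM with IgG. The next step, phosphofructokinase, commits the sugar to glycolysis and is served by 3 isoenzymes. Pfkl, the liver type, stood at 7.19 ± 0.608 RPKM, Pfkm, the muscle type, at 6.72 ± 1.05 RPKM and Pfkp, the platelet type, at 3.71 ± 0.361 RPKM in control libraries. That order depended on the length used, since with the principal transcript Pfkp (12.0 RPKM) stood next to Pfkl (12.9 RPKM) and above Pfkm (7.80 RPKM).

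Pfkm, at chr15:98092589-98132451 on the plus strand of GRCm38, was the member with the smallest p. It stood at 20.6, 22.9, 19.2 and 27.2 CPM in control replicates 1 to 4 and at 14.8, 20.4, 14.5 and 23.4 CPM in the IgG replicates. The IgG library was the lower one in every pair, but the groups overlapped because the cultures of dates 2 and 4 were high in both. Its log2 fold change was -0.31 (SE 0.10, 95% interval -0.55 to -0.07), with an adjusted p of 0.397. Its exons share 341 bases with Gm26513 on the same strand, so reads there cannot be assigned to 1 of them.

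Pfkl ran from 44.9 to 53.6 CPM in control and from 39.0 to 60.4 CPM with IgG, lower with IgG in pairs 1 and 3 and higher in pairs 2 and 4. Pfkp ran from 44.2 to 54.3 CPM in control and from 41.4 to 54.4 CPM with IgG. The log2 ratio of Pfkl to Pfkm was higher with IgG in 4 of 4 pairs, by 0.27, 0.29, 0.27 and 0.39. Its mean difference was 0.30 ± 0.0585 (SD, n = 4 pairs), with a mean ratio of 0.11 ± 0.10 in control and 0.41 ± 0.06 in IgG libraries. The exact sign-flip permutation p was the smallest that 4 pairs can give, and 0.333 after adjustment over the 8 ratios. Of the summed phosphofructokinase RPKM, Pfkm made up 38.0% ± 1.69 in control and 33.3% ± 1.72 in IgG libraries. With the length of the principal transcript these shares were 23.78% and 20.35%.

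The enzymes that set the level of fructose 2,6-bisphosphate, the activator of phosphofructokinase, are Pfkfb3, which mainly makes it, and Pfkfb4. Pfkfb4 stood at 54.0, 53.0, 51.5 and 47.9 CPM in control and at 57.4, 60.7, 57.6 and 54.9 CPM with IgG, with no overlap, but with total counts the lowest IgG library (52.4 CPM) lay under the highest control library (55.3 CPM). Its log2 fold change was 0.16 (SE 0.08, adjusted p = 0.546). Pfkfb3 was the more abundant of them, at 148, 133, 140 and 131 CPM in control and 184, 144, 160 and 115 CPM with IgG. It was higher in pairs 1 to 3 and lower in pair 4, a log2 fold change of 0.11 (SE 0.10). Leaving out a pair, with the block kept, moved this value between 0.04 (without replicate 1) and 0.19 (without replicate 4). Pfkfb3 relative to Pfkfb4 differed on the log2 scale by -0.05 ± 0.255 (exact sign-flip permutation p = 0.75).

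Aldolase splits the 6-carbon sugar into 2 trioses. Aldoa made up 97.5% ± 0.550 of the summed aldolase RPKM in control and 97.9% ± 0.877 in IgG libraries. It ran at 724, 720, 724 and 811 CPM in control and at 659, 679, 671 and 925 CPM with IgG, so replicate 4 was the highest in both groups. The log2 fold change was -0.03 (SE 0.10). Tpi1, which interconverts the trioses, was also highest in replicate 4 of the IgG group, with 181, 182, 169 and 223 CPM against 190, 200, 183 and 192 CPM in control.

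Aldoc, the brain aldolase that is typical of astrocytes (GRCm38, chr11:78322968-78327781), was lower with IgG mainly in pairs 1 and 3. It stood at 17.0, 24.1, 16.4 and 28.4 CPM in control and at 10.1, 24.6, 11.1 and 27.9 CPM with IgG. The log2 differences by pair were -0.75, 0.03, -0.56 and -0.03, and the fitted value was -0.32 (SE 0.15, 95% interval -0.67 to 0.03, adjusted p = 0.522). Leaving out a pair, with the block kept, moved it between -0.44 and -0.18. With single libraries left out as well, without the block, the range was -0.49 to -0.017. On all libraries without the block the value was -0.22. With replicates 2 and 4 alone, a choice made after the data were seen, the value was 0.001.

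Gapdh, which oxidises glyceraldehyde 3-phosphate and is often used as a reference transcript, is uncertain from its own row (GRCm38, chr6:125161715-125166467). The row held 12269 counts over the 8 libraries, or 65.9 ± 4.86 CPM in control and 70.3 ± 7.55 CPM with IgG. Each of the 950 windows of 50 bases in its coding sequence also occurs in another annotated gene. Together 221 such genes held 496794 counts, of which Gm13394, a processed pseudogene, alone held 82058. As an example, the following coding bases 415 to 464 of Gapdh occur unchanged in 84 other genes.
Gapdh: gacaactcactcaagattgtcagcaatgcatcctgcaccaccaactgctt

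Adding the counts of those genes to the member, also chosen after the data were seen, put Gapdh at 2554, 2576, 2630 and 2826 CPM in control and 3182, 2463, 3266 and 3183 CPM with IgG. With TMM the groups then overlapped through pair 2 only, and the log2 fold change was 0.18 (SE 0.11, adjusted p = 0.584 by the quasi-likelihood test). These summed levels were not compared with total counts. Eno1, the general enolase, was split in a like way. Its row held 53935 counts while 9 genes sharing its coding windows held 55232, of which Eno1b held 30389. Pgk1 and Pgam1 shared all of their coding windows with other genes, but those held 2574 and 10856 counts against 60323 and 83142 in the rows of the members. Of the 38 rows, 24 shared no window of 50 coding bases with any other gene.

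**Figure D3:**
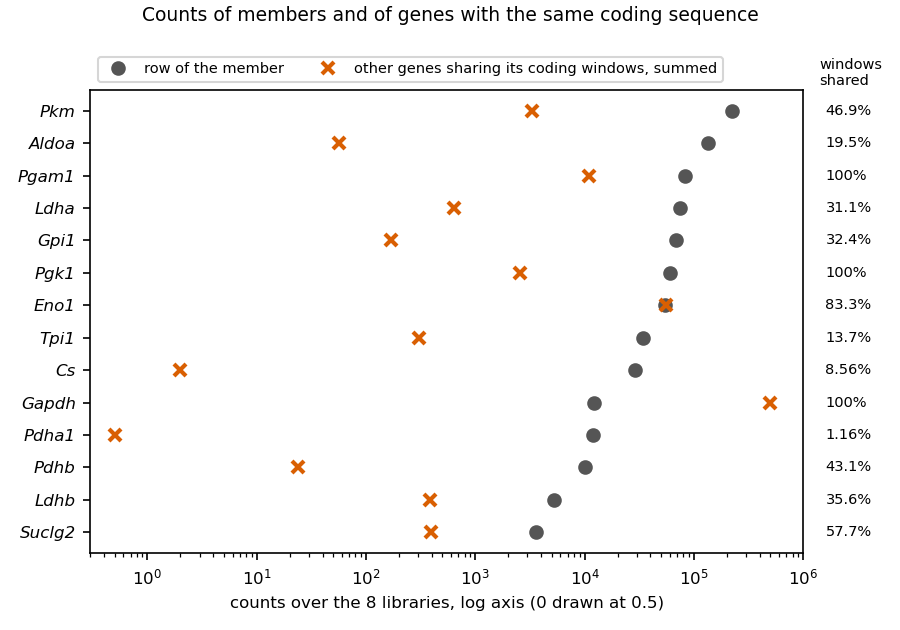
Counts over the 8 libraries in the rows of 14 members that share coding windows of 50 bases with other genes (circles) and in those other genes summed (crosses), on a log axis, with the share of windows at the right. The other genes hold more counts than the member for Gapdh and Eno1 only.

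Pgk1 and Pgam1, which carry 3-phosphoglycerate towards enolase, had log2 fold changes of 0.04 and -0.05. Pgk1 had 330 ± 10.7 CPM in control and 340 ± 26.0 CPM with IgG. Pgam1 had 469 ± 40.9 and 453 ± 46.5 CPM, and was lower in 4 of 4 pairs by 0.14 or less on the log2 scale. Eno1 stood at 258, 292, 268 and 309 CPM in control and at 324, 265, 340 and 346 CPM with IgG, with a log2 fold change of 0.17 (SE 0.11, adjusted p = 0.589), or 0.11 with the sharing genes added.

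Eno2, the enolase typical of neurons (GRCm38, chr6:124760053-124769673), had the lowest log2 fold change of all members. It stood at 59.2, 61.8, 53.8 and 60.9 CPM in control and at 34.5, 58.3, 30.8 and 61.4 CPM with IgG. The IgG libraries of pairs 1 and 3 lay far below every control library, and those of pairs 2 and 4 lay among them. The fitted value was -0.41 (SE 0.16, 95% interval -0.77 to -0.05), with an adjusted p of 0.461. Without replicate 4 the value was -0.57 with an adjusted p of 0.118 by the quasi-likelihood test, which met the criterion of the study. Of the 17554 genes tested in that fit, 427 met it with IgG higher and 335 with IgG lower. The value of Eno2 was -0.29 without replicate 1 and -0.28 without replicate 3. The share of Eno2 in the summed enolase RPKM was 19.3% ± 1.07 in control and 14.3% ± 5.04 in IgG libraries, where sharing genes were not added. Eno1 relative to Eno2 differed on the log2 scale by 0.59 ± 0.627 (exact sign-flip permutation p = 0.25).

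**Figure D4:**
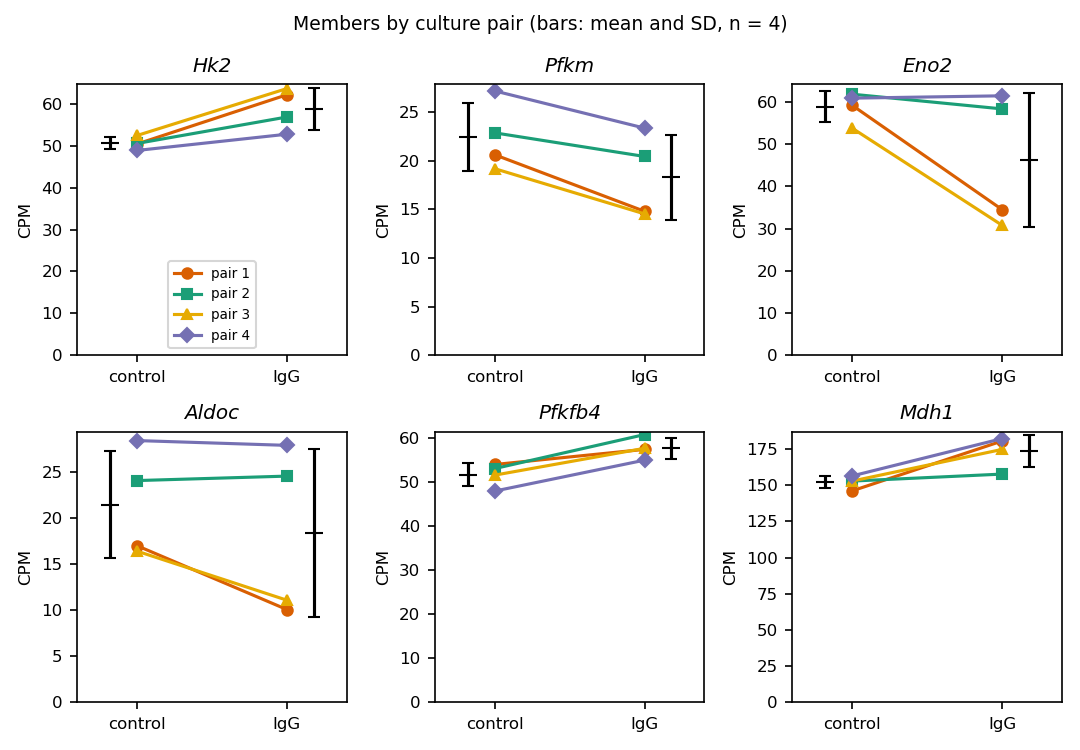
CPM of 6 members in the control and IgG library of each pair (coloured lines), with the mean and SD of each group (black). Hk2, Pfkfb4 and Mdh1 do not overlap between groups on this TMM scale, Pfkm is lower with IgG in every pair, and Eno2 and Aldoc are lower in pairs 1 and 3.

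Pkm, the last enzyme of glycolysis, had the most counts of all members in its own row, while with sharing genes added Gapdh stood at 2646 CPM in control against 1206 CPM for Pkm. It was nearly constant in control, at 1197, 1182, 1196 and 1190 CPM, and spread over 1289, 1134, 1297 and 1370 CPM with IgG. Its log2 fold change was 0.09 (SE 0.10), and its exons share 767 bases with Gm49759 on the same strand. Ldha, which makes lactate, stood at 399, 386, 417 and 379 CPM in control and at 455, 383, 481 and 453 CPM with IgG, giving a log2 fold change of 0.16 (SE 0.09, adjusted p = 0.564). Ldhb, the isoenzyme that favours lactate use, stood at 23.2, 29.4, 23.3 and 36.3 CPM in control and at 22.8, 28.7, 26.7 and 43.0 CPM with IgG. Ldha made up 87.0% ± 2.91 and 87.4% ± 3.24 of their summed RPKM. The log2 ratio of Ldha to Ldhb was higher in 4 of 4 pairs, but by 0.07 ± 0.101 only (the smallest exact sign-flip permutation p possible, and 0.333 adjusted). That mean rested on pair 1, at 0.22, and was 0.016 without it.

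The pyruvate dehydrogenase complex and its kinase showed small differences. Pdha1 and Pdhb, the subunits of pyruvate dehydrogenase, Dlat, which transfers the acetyl group, and Pdk1, the kinase that switches the complex off, had log2 fold changes between -0.04 and 0.10. The highest was Pdha1, with 62.5, 62.5, 61.7 and 67.4 CPM in control and 75.1, 62.8, 72.9 and 63.1 CPM with IgG (SE 0.10, adjusted p = 0.703). The lowest was Dlat, with 47.6, 49.7, 52.7 and 49.7 CPM in control and 51.9, 48.8, 47.9 and 45.3 CPM with IgG (SE 0.09, adjusted p = 0.881). Pdk1 was the least abundant member per length, at 2.79 ± 0.148 RPKM in control, and ran from 16.4 to 27.2 CPM with IgG. All 4 intervals lay within 0.5 of 0.

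In the citric acid cycle 11 of 13 members were above 0, but 4 of 13 with total counts in place of TMM. The median log2 fold change was 0.06 with a range from -0.03 to 0.20. Fh1, the fumarase, was the highest, with 41.1, 46.9, 44.5 and 43.7 CPM in control and 52.9, 45.4, 55.6 and 49.3 CPM with IgG. Its log2 fold change was 0.20 (SE 0.10, adjusted p = 0.528). Cs, the citrate synthase, was 0.19 higher (SE 0.10, adjusted p = 0.544), with 148, 147, 147 and 159 CPM in control and 191, 157, 185 and 156 CPM with IgG.

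Mdh1, the cytosolic malate dehydrogenase, did not overlap between the groups with TMM. It stood at 146, 153, 153 and 156 CPM in control and at 181, 158, 175 and 182 CPM with IgG, giving a log2 fold change of 0.19 (SE 0.09, adjusted p = 0.506). With total counts its groups overlapped, at 150 to 163 CPM in control and 162 to 181 CPM with IgG, and the value was 0.09. Mdh2, its mitochondrial counterpart, stood at 136, 156, 140 and 149 CPM in control and at 152, 147, 142 and 184 CPM with IgG. Per length Mdh1 made up 59.3% ± 1.17 of the sum in control and 60.8% ± 2.35 in IgG libraries, but with the principal transcript Mdh2 was the larger, so their order is uncertain. Mdh1 relative to Mdh2 differed on the log2 scale by 0.09 ± 0.116 (exact sign-flip permutation p = 0.25).

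Isocitrate dehydrogenase occurs in NADP-linked forms, Idh1 in the cytosol and Idh2 in mitochondria, and in the NAD-linked form of the cycle, built from Idh3a, Idh3b and Idh3g. Idh1 stood at 135, 140, 136 and 141 CPM in control and at 162, 138, 151 and 137 CPM with IgG. Idh2 stood at 55.9, 57.2, 57.7 and 56.0 CPM in control and at 53.3, 57.0, 51.5 and 61.7 CPM with IgG. The log2 ratio of Idh1 to Idh2 was higher in pairs 1 and 3, by 0.33 and 0.32, and lower in pairs 2 and 4 (exact sign-flip permutation p = 0.5).

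The subunits of the NAD-linked enzyme had fitted values of either sign. Idh3b had the lowest log2 fold change of the cycle, -0.03 (SE 0.11), with 107, 104, 97.9 and 100.1 CPM in control and 89.2, 109, 84.1 and 122 CPM with IgG. With TMM Idh3g was higher in 4 of 4 pairs (log2 fold change 0.14, SE 0.09, adjusted p = 0.604), but with total counts in 2 of 4, with a value of 0.04. Idh3a was higher in pairs 1 and 3 and lower in pairs 2 and 4. Ogdh and Dlst, of the oxoglutarate dehydrogenase complex, and Suclg1 and Suclg2, of succinyl-CoA ligase, had log2 fold changes of 0.03 to 0.06.

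Counted over all members, 3 of 37 did not overlap between the groups with IgG higher, where 2.6% of all genes did so, and 0 with IgG lower, against 1.57%. These counts hold with TMM. With total counts 0 of 37 members were free of overlap in either direction, where 1.15% of all genes were with IgG higher and 3.41% with IgG lower. With TMM the IgG library was the higher one in all 4 pairs for 6 members (Hk1, Hk2, Hk3, Pfkfb4, Idh3g and Mdh1), or 16.2%, against 10.4% of all genes. It was the lower one in all 4 pairs for 2 members (Pfkm and Pgam1), or 5.41%, against 8.47% of all genes. With total counts the balance turned. Then 2 members (Hk2 and Mdh1), or 5.41%, were higher in all 4 pairs, against 5.62% of all genes, and 5 (Pfkm, Pfkp, Pgam1, Eno2 and Dlat), or 13.5%, were lower, against 16.1%.

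The differences varied by pair, which was not tested. With TMM the median log2 difference of the 37 members was 0.12 in pair 1, -0.01 in pair 2, 0.12 in pair 3 and 0.08 in pair 4, and the medians of all genes lay between 0.0010 and 0.016. For the 13 members of the cycle these medians were 0.19, -0.003, 0.15 and 0.07. With total counts the medians of the members were -0.04, -0.02, -0.04 and 0.01, against -0.15, -0.0077, -0.14 and -0.07 for all genes, and those of the cycle lay between -0.01 and 0.02. The sign was the same in pairs 1 and 3 for 33 of the 37 members, where 78.6% of all genes shared it, but the same in pairs 1 and 4 for 18 members, where 41.4% of all genes did. With total counts these were 30 members (79.6% of all genes) and 17 (44.4%). In pairs 1 and 3 the IgG libraries were those with the high share of mitochondrially encoded counts, and the part of that share in these differences was not tested.

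Analysed alone with TMM, pairs 1 and 3 gave 21 members past an adjusted p of 0.05, 14 higher and 7 lower, but 43.6% of all genes passed as well. The higher ones were Cs, Dlst, Eno1, Fh1, Gpi1, Hk2, Idh1, Idh3a, Ldha, Mdh1, Ogdh, Pdha1, Pfkfb3 and Pkm, and the lower ones Aldoa, Aldoc, Eno2, Idh3b, Pfkl, Pfkm and Tpi1. These directions depended on the scaling, and pairs 1 and 3 alone were not tested with total counts. With TMM 25 of the 37 members were higher in pair 1 and 23 in pair 3. With total counts these were 13 and 14, against 6324 and 6502 of all 17537 genes. Pairs 2 and 4 alone gave 0 members, where 190 genes passed in all. Both subsets were chosen after the data were seen, and each leaves 1 residual degree of freedom per gene.

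Libraries treated with IgG also varied more between cultures than control libraries did. The coefficient of variation of the CPM had a median over the members of 5.16% in control and 9.39% in IgG libraries, and was higher with IgG for 32 of 37 members. For the 7456 genes in the same range of CPM the medians were 5.11% and 14.3%. Aldoc had the widest spread in both groups, 27.0% and 49.7%, and Eno2 went from 6.12% to 34.3%.

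**Figure D5:**
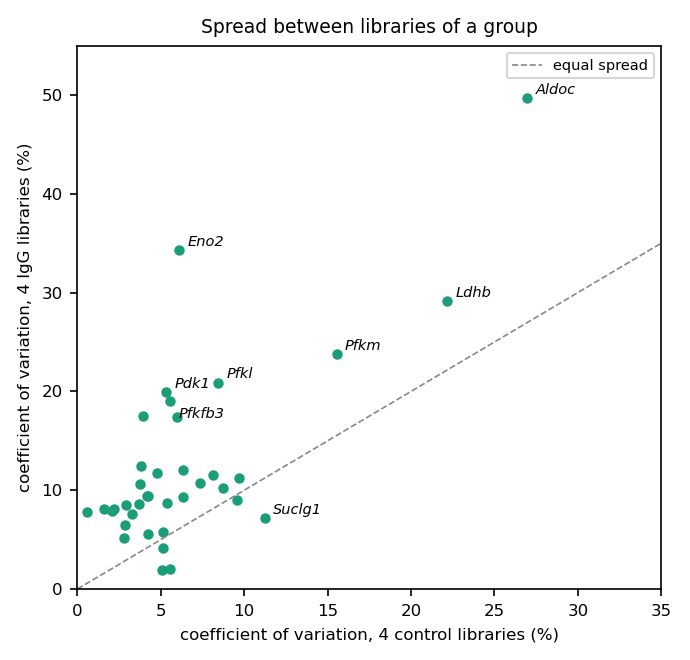
Coefficient of variation of the CPM in the 4 control (x axis, %) and the 4 IgG libraries (y axis, %), 1 point per member, with the line of equal spread. Of the 37 members 32 lie above the line, and Aldoc and Eno2 lie highest.

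Differences between the 4 dates were tested in the same fit. None of the 37 members passed an adjusted p of 0.05 in edgeR's quasi-likelihood test or in limma-voom, where 0.975% of all genes did in the first. The smallest adjusted p-values were those of Aldoc (0.10) and Ldhb (0.113). Both, like Pfkm, were higher in the cultures of replicates 2 and 4 than in those of replicates 1 and 3, in control as well as in IgG libraries.

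Oligodendrocyte markers followed the same order of dates. The summed CPM of 8 oligodendrocyte markers was 1126, 1755, 1157 and 1560 in control and 947, 1654, 955 and 1526 in IgG libraries, and all 8 were tested, with log2 fold changes below 0 for all 8. Astrocyte markers summed to 162 to 180 CPM in control and 145 to 174 CPM with IgG, with 7 of 8 below 0. Of the 8 neuron markers 7 were tested, 6 of them below 0. Their sums were 42.8, 60.2, 52.6 and 69.4 CPM in control and 36.9, 56.3, 51.8 and 54.6 CPM with IgG. These too were higher in replicates 2 and 4 than in replicates 1 and 3 of both groups. None of these markers passed either call rule, and none was at 0 in all libraries. The part of such cells in the values of Eno2, Aldoc, Ldhb and Pfkm was not tested, and in bulk RNA fewer cells of a type and less RNA per cell cannot be told apart.

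The cells carried the label of microglia, whose 10 markers were all detected and summed to 7640 to 8603 CPM in control and 8755 to 9253 CPM with IgG. With total counts these ranges overlapped, at 7971 to 8872 and 8052 to 9182 CPM, and the sum was lower with IgG in pairs 1 and 3. The part of this difference in the values of the members was not tested. Of the 10 markers 9 were above 0 (8 with total counts), and 1 passed the adjusted test, Aif1, the gene of the microglial protein Iba1 (log2 fold change 0.69, higher in 4 of 4 pairs, adjusted p = 0.033). Markers of fibroblasts summed to at most 6.22 CPM, those of border-associated macrophages to 51.3 to 106 CPM and those of proliferation to 121 to 162 CPM, without a call in these 3 lists.

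Neighbouring pathways gave 1 further gene. Of 15 other genes of the citric acid cycle and its shuttles, all tested, 13 were above 0, but 6 with total counts, and 1 met the criterion of the study. It was Acod1, which makes itaconate from the cycle intermediate cis-aconitate in activated macrophages. Acod1 stood at 32.1, 24.1, 28.0 and 24.4 CPM in control and at 62.4, 30.4, 58.9 and 41.9 CPM with IgG, higher in 4 of 4 pairs, with a log2 fold change of 0.79 and an adjusted p of 0.055.

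Neither call rule was met in the remaining lists. Counts above 0 are read beside 8609 of all 17537 genes with TMM, and 5292 with total counts. Among other isoenzymes of glycolysis and related enzymes, those of gluconeogenesis included, 10 of 17 genes were tested. Of these 1 was above 0 with TMM and 0 with total counts. With TMM their median was -0.15, with summed levels of 90.1 to 93.6 CPM in control against 80.5 to 87.3 CPM with IgG. For glucose and lactate transporters 8 of 10 were tested and 5 were above 0, for the pentose phosphate pathway 5 of 8 were, and for further genes of pyruvate handling 10 of 11 were tested and 5 were above 0. With total counts these were 4, 1 and 2. Of 13 genes of the hypoxia response 6 were above 0 (3 with total counts), with a median of -0.05 and sums of 399 to 438 CPM in control and 393 to 491 CPM with IgG.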

How the data were processed

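RNA sequencing counts of 8 libraries, 4 control and 4 IgG, were used. The authors removed low-quality reads and aligned the rest with HISAT2 2.2.1 to GRCm38, and the submitters' processing notes also name SAMtools 1.12, Picard 2.26.3, featureCounts and edgeR 3.36.0 in R 4.1.2. What the authors deposited are raw counts, 1 whole number per Ensembl gene and library. The annotation, the use of strand and the treatment of reads with several alignments are not given in the sources used here, so genes with copies or overlapping exons are uncertain. Symbols, coordinates and exon lengths came from GENCODE M21 (55144 of 55385 identifiers found). A count of 0 allows up to 3 counts, or 0.127 to 0.141 CPM by library, and such limits cover counting error only.

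Counts were scaled with TMM, filtered with filterByExpr, leaving 17537 genes, and compared by edgeR 4.0.16 in R 4.3.3 (quasi-likelihood F-test) with replicate number and group as terms and Benjamini-Hochberg adjustment over all genes. Log2 CPM used a prior count of 2. The numbers pair the libraries because the labels give both the same date, and deviations from the group means correlated at 0.44, 0.383, 0.262 and 0.315 within pairs over 14155 genes. Across pairs, replicates 1 and 3 correlated at 0.232 and 0.176, and replicates 2 and 4 at 0.183 and 0.173. All other combinations lay between -0.356 and -0.15. Isoenzyme ratios were compared by exact sign-flip permutation over 4 pairs. DESeq2 1.42.0, limma 3.58.1, other scalings and filters and the omission of pairs, with the block, and of single libraries, without it, were alternatives, and the scripts were tested on simulated data. The members, lists and alternatives were chosen with earlier results of these data known. Values per library were given for members past a call rule, for the highest and lowest member of each branch and for isoenzymes, with further members added for description, and genes of other lists were named only past a call rule.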

Additional observations from a re-analysis of the deposited data

Results flagged for a closer look

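Within groups of 4 libraries the gap between the most extreme library and its neighbour, divided by the range of log2 CPM, exceeded the 95% critical value of Dixon's test for 7 of the 74 group values tested over the 37 members. Chance flags about 1 in 20 groups. Replicate 4 was the extreme library in 5 of the 7. Control replicate 4 was the highest for Aldoa (ratio 0.953, 811 CPM against 720 to 724), Cs (0.962, 159 CPM against 147 to 148) and Pdha1 (0.851, 67.4 CPM against 61.7 to 62.5). IgG replicate 4 was the highest for Aldoa (0.912, 925 CPM against 659 to 679) and Pgam1 (0.866, 522 CPM against 424 to 436). Gpi1 was lowest in control replicate 1 (0.855), and Idh3g was highest in control replicate 3 (0.851).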

How the results depend on the processing

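None of the alternatives run on all 4 pairs, nor the omission of any pair or library, called a member at an adjusted p under 0.05, and 14 of the 37 members kept the sign of their log2 fold change in all 25 alternatives, Hk2, Pfkm and Eno2 among them. The count over all genes was 69 in the reported fit. It was 0 with no replicate block, where 1230 genes had an unadjusted p under 0.05, 37 with total counts alone, 376 without a filter on low counts, 327 with the likelihood ratio test, 228 with DESeq2 and 198 with the length and GC correction with the replicate block. With the block and 1 pair left out it ran from 0 (without replicate 2) to 182 (without replicate 4). Fits that left out a single library also dropped the block, which alone brings the count to 0, and gave 0 to 6 genes. The choices made after the data were seen gave 190 genes with replicates 2 and 4 alone. With replicates 1 and 3 alone they gave 7682 genes, 21 of them members. In the latter fit 2 members met the criterion of the study, against 1155 genes higher and 1655 lower of the 17612 tested. Without a pair or library that criterion was met by 0 to 1 members (Eno2, without replicate 4, where 427 genes met it higher and 335 lower). The median log2 fold change of the members was -0.040 with total counts alone. With no replicate block the sign turned for Pfkl 0.0082 only and no call of a member changed. Sign changes of single members, all uncalled in the reported fit, are given next as log2 fold changes. With total counts alone they were Idh1 -0.013, Pdk1 -0.087, Mdh2 -0.0031, Suclg1 -0.066, Suclg2 -0.040, Gapdh -0.0092, Ldhb -0.0042, Idh3a -0.067, Pkm -0.0083, Hk1 -0.012, Ogdh -0.042, Dlst -0.058 and Pgk1 -0.061. With at least 10 counts in every library the value was Pdk1 -0.015. With the length and GC correction and the replicate block they were Pdk1 -0.012, Suclg1 -0.0074, Idh2 0.019, Aldoa 0.026 and Pfkl 0.059. With replicates 1 and 3 alone they were Suclg1 -0.051 and Gapdh -0.043, and with replicates 2 and 4 alone Idh1 -0.034, Pfkfb3 -0.034, Pdk1 -0.12, Idh3b 0.18, Suclg2 -0.024, Tpi1 0.038, Idh2 0.069, Aldoa 0.053, Idh3a -0.17, Pfkl 0.15, Ogdh -0.10, Aldoc 0.001, Dlst -0.070, Pdhb 0.080, Pgk1 -0.033 and Pdha1 -0.044. Leaving out a pair with the block, or a library with no replicate block, gave joint ranges across 0 for Pdk1 -0.078 to 0.15, Idh3b -0.15 to 0.065, Suclg1 -0.022 to 0.12, Suclg2 -0.010 to 0.12, Tpi1 -0.12 to 0.030, Gapdh -0.021 to 0.15, Ldhb -0.11 to 0.25, Idh2 -0.10 to 0.024, Aldoa -0.15 to 0.028, Idh3a -0.049 to 0.10, Pfkl -0.12 to 0.10, Ogdh -0.0061 to 0.13, Pfkp -0.11 to 0.024 and Pdhb -0.073 to 0.03, of which Ldhb and Aldoa crossed 0 only in fits without the block. Joint ranges on 1 side of 0 included Pfkm -0.43 to -0.20, Eno2 -0.57 to -0.19 and Aldoc -0.49 to -0.017. They also included Pgam1 -0.12 to -0.0042, Hk1 0.055 to 0.10, Hk3 0.056 to 0.13 and Pgk1 0.0036 to 0.10. Eno1 ran from 0.12 to 0.28, Pkm from 0.0385 to 0.15 and Pfkfb3 from 0.0205 to 0.24. Others were Pdha1 0.051 to 0.16, Dlat -0.097 to -0.009, Idh1 0.0285 to 0.12 and Dlst 0.0032 to 0.099. Idh3g ran from 0.067 to 0.19 and Mdh2 from 0.0135 to 0.16. The log2 ratio of Pfkfb3 to Pfkfb4 ran from -0.14 to 0.061 without single pairs, and other isoenzyme ratios kept their sign. Length scaling cannot move the difference of a given ratio within a pair, since it cancels. It did enter the choice of ratios, which took the 2 highest isoenzymes of a step by RPKM over all exons. With principal transcripts Pfkp (12.0 RPKM in control) stood above Pfkm (7.80 RPKM), and Hk1 (11.9 RPKM) above Hk2 (9.18 RPKM). Ratios with Pfkp or Hk1 were not tested. The causes of these changes were not tested. The median SE of the log2 fold change over the members was 0.096 with 4 pairs.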
